A study of Drosophila melanogaster with 38 samples.

Results

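The X chromosome of Drosophila melanogaster larvae carried 141 of the 1883 regions in the authors' O-GlcNAc peak table and 231 of the 3534 regions in their OGA peak list. All peaks that the authors placed on chromosome X were taken, by the chromosome name in each list, and none was left out. They made up 7.49% of the O-GlcNAc peaks and 6.54% of the OGA peaks.

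O-GlcNAc is a single sugar that the enzyme OGT attaches to serine and threonine residues of nuclear and cytoplasmic proteins and that the hydrolase OGA removes. In Drosophila, OGT is encoded by super sex combs, a Polycomb group gene, and the Polycomb protein Polyhomeotic is among the chromatin proteins that carry the sugar. The X is present in a single copy in males, where the dosage compensation complex raises its transcription.

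Larvae spent 36 h on food with 150 uM of Ac4GalNAz, a sugar that carries an azide, and were then chased on food without it for 0, 4, 8, 12, 16, 20, 24 or 36 h, so that DNA bound to azide-labelled proteins could be captured and sequenced at each time. Wild-type (WT) larvae were of the Oregon R strain, and OGA-null larvae carried an OGA knockout in the Oregon R background. Each genotype and time had 2 replicate libraries of whole larvae collected together, and the deposited table held 1 signal column for each genotype and time. The OGA peaks came from ChIP-seq with an antibody to OGA in WT and OGA-null larvae, with 1 library per genotype and a single peak list. The labels gave no sex for the larvae, so the number of X copies per pool is unknown, and which genotype an OGA peak came from cannot be told apart. The libraries of larvae not fed the sugar were not analysed here. Because each column joined 2 replicates, no value below has a replicate error, and the tests of trends used the 8 chase times as their points.

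Peaks of both kinds were sparse on the X. There were 6.46 O-GlcNAc peaks per Mb on the X (exact Poisson 95% interval 5.44 to 7.62) and 17.3 per Mb on the 4 large autosomal arms together (16.5 to 18.1), a ratio of 0.374. The arms ranged from 16.3 per Mb on 2L to 19.1 per Mb on 2R, so the X lay below every one of them and its interval did not reach theirs. For OGA, the X had 10.6 peaks per Mb (9.27 to 12.0) against 29.9 per Mb on the autosomal arms (28.8 to 31.0), a ratio of 0.355. The arms ranged from 27.9 per Mb on 3R to 33.7 per Mb on 2R, again all above the X. The X thus had 1.64 OGA peaks for each O-GlcNAc peak, and the autosomal arms 1.73. The intervals cover counting error only, peaks that lie beside each other are not independent, and with 5 arms the smallest one-sided p of an exact permutation test is 0.2. Much of the X held no peak of either kind, and per Mb of the 100 kb windows that held 1 or more, the X had 14.5 O-GlcNAc and 23.8 OGA peaks against 21.6 and 37.3 on the autosomal arms, ratios of 0.673 and 0.639. Densities were otherwise counted between the outermost peaks of each arm, whichever list they came from, which on the X was 21.8 Mb, from position 377 to position 21816169 of the dm3 build.

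**Figure D1:**
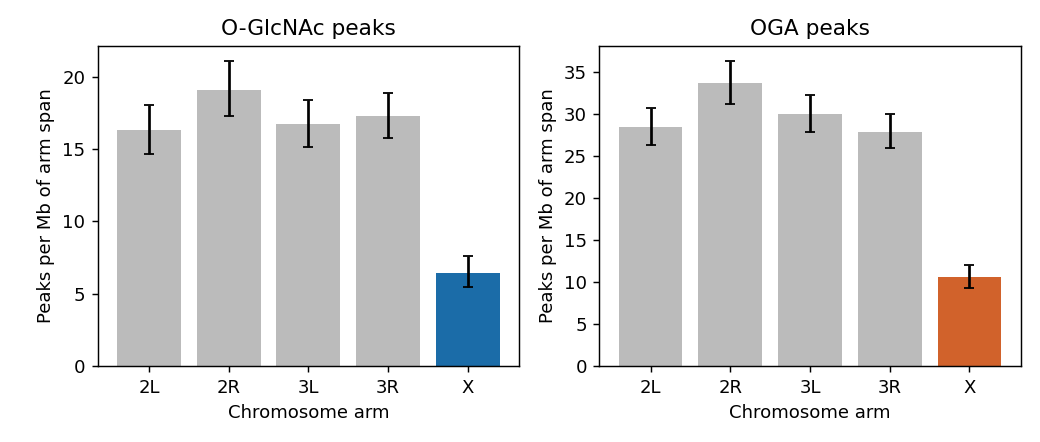
Peaks per Mb on each chromosome arm for the O-GlcNAc table and the OGA list, with exact Poisson 95% intervals as bars. The X had 6.46 O-GlcNAc and 10.6 OGA peaks per Mb, below all 4 autosomal arms in both lists.

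The peaks were unevenly spread along the X, which runs in this build from the telomere to the centromere. The 2 Mb from position 1000001 to 3000000 held 61 of the 141 O-GlcNAc peaks (43.3%), or 30.5 per Mb, which is above the density of any whole autosomal arm. The remaining 80 peaks lay at 4.04 per Mb, a ratio of 0.233 to the autosomal arms. On the autosomal arms the 2 fullest bins of 1 Mb held at most 28.4% of an arm's O-GlcNAc peaks. The bin from 1000001 held 34 O-GlcNAc peaks and the next held 27, whereas the median bin of the X held 4, and 3 of its 22 bins held none. The first Mb held 1 O-GlcNAc peak, and the fourth held 8.

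OGA peaks shared this distal cluster and had further concentrations at both ends. The region from 1000001 to 3000000 held 53 OGA peaks (22.9%), or 26.5 per Mb, against 8.98 per Mb on the rest of the X. The first Mb, which had 1 O-GlcNAc peak, had 19 OGA peaks. The last bin, next to the centromere end, had the most OGA peaks of any bin on the X, 39, and 8 O-GlcNAc peaks. The twentieth Mb had 17 OGA peaks and 4 O-GlcNAc peaks, and the ninth had 17 and 8. Over the 22 bins, the counts of both kinds had a Pearson r of 0.594 and a Spearman rho of 0.491, given as a description since neighbouring bins are not independent. The Pearson r was 0.301 on 2R and 0.780 to 0.833 on the other autosomal arms.

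**Figure D2:**
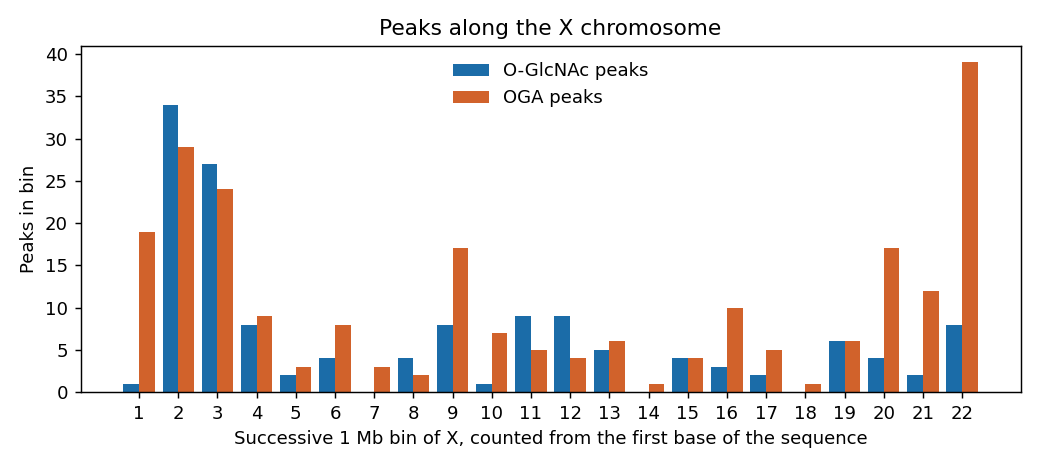
Number of O-GlcNAc and OGA peaks in each 1 Mb bin along the X, from the telomere end (left) to the centromere end (right). O-GlcNAc peaks were most numerous in bins 2 and 3 (34 and 27), and OGA peaks in the last bin (39).

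Long stretches of the X carried no peak. The longest without an O-GlcNAc peak was chromosome X from 12630048 to 14720105, 2.09 Mb, followed by 16461375 to 18530536, 2.07 Mb, and 5897650 to 7502359, 1.60 Mb. The longest without an OGA peak was 6181132 to 7566751, 1.39 Mb. The stretch from 17162707 to 18530536, 1.37 Mb, held neither kind, nor did 6181132 to 7502359, 1.32 Mb. The X had 14 gaps of over 500 kb between neighbouring O-GlcNAc peaks, and the autosomal arms had 1 to 10 each. For OGA it had 13 such gaps, and the autosomal arms had 0 to 4.

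Where peaks were present on the X, they mostly had close neighbours. Of the 141 O-GlcNAc peaks, 102 (72.3%) had another within 10 kb, against 66.2% on the autosomal arms together. Single arms ran from 59.8% on 2L to 68.1% on 3L. The median distance to the nearest other O-GlcNAc peak was 2212 bp on the X and 3320 bp on the autosomal arms. OGA peaks went the other way, with 148 of 231 (64.1%) on the X and 71.0% on the autosomal arms having another within 10 kb. Neighbours joined wherever they lay within 10 kb of each other formed 69 O-GlcNAc chains on the X, of which 39 were single peaks. The chains lay at 3.16 per Mb on the X and 9.25 per Mb on the autosomal arms. The 6 chains of 5 or more peaks held 44 of the 141 peaks (31.2%), against 26.1% on the autosomal arms together. Single arms ran from 15.5% on 2L to 33.0% on 2R, so the X lay within their range. The largest chain had 10 peaks on the X and 10 to 17 on the autosomal arms.

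Of those 6 chains, 4 lay in the distal cluster. The largest ran from 1958666 to 1988885, with 10 O-GlcNAc peaks in 30.2 kb and 2 OGA peaks inside it. The others there were 2190112 to 2200138, with 7 O-GlcNAc peaks and no OGA peak inside, 1559048 to 1565114, with 6 and 2, and 2022004 to 2048795, with 6 and 3. The remaining pair lay at 11696724 to 11698420, described next, and at 18530537 to 18548651, with 6 O-GlcNAc and 2 OGA peaks, which follows directly on the second-longest O-GlcNAc-free stretch.

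Of the 6 chains of 5 or more peaks, the one at 11696724 to 11698420 was the shortest. Its 9 O-GlcNAc peaks were 26 to 128 bp apart and covered 1270 of 1697 bp (74.8%), with 1 OGA peak inside. On the whole X, 30 of the 141 O-GlcNAc peaks had a neighbour within 100 bp, which is less than the length of a sheared fragment, so such neighbours can share DNA fragments. Joining peaks closer than 500 bp into 1 gave 5.23 O-GlcNAc peaks per Mb on the X and 14.8 per Mb on the autosomal arms.

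OGA peaks formed 126 chains on the X, of which 83 were single peaks and 12 held 5 or more. The largest was at 21762412 to 21776071, with 9 peaks in 13.7 kb near the centromere end. The next were at the telomere end, from 377 to 15013, with 7 peaks in 14.6 kb, and at 3747748 to 3766259, with 7 peaks in 18.5 kb. The chain from 1553117 to 1571019 had 5 OGA peaks and contained all 6 peaks of an O-GlcNAc chain. The 5 OGA peaks from 8374082 to 8376729 had no O-GlcNAc peak among them.

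O-GlcNAc peaks were wider on the X. Their median width was 57 bp (quartiles 20 and 105 bp) against 36 bp on the autosomal arms. On the X, 37 peaks (26.2%) had the narrowest width listed, 20 bp, against 36.1% on the autosomal arms, and another 37 (26.2%) exceeded 100 bp, against 15.3%. The widest, 478 bp, was at 19047364 to 19047841. OGA peaks were narrow on all arms, with a median of 13 bp on the X and 16 bp on the autosomal arms, and 89 of the 231 X peaks (38.5%) were under 10 bp wide. The labels describe sheared fragments longer than most of these widths, so such widths are the extent of a listed region and not of a bound fragment.

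The 5 widest OGA peaks on the X were each more than 100 kb from any O-GlcNAc peak, as were 34.6% of all OGA peaks there. The widest, 507 bp at 8189127 to 8189633, was 101777 bp from the nearest O-GlcNAc peak and had the next 2 in width, 309 bp at 8188534 to 8188842 and 164 bp at 8188929 to 8189092, directly beside it. The 137 bp peak at 99543 to 99679 was 845886 bp away, and the peak at 11381766 to 11381884 was 314839 bp away. The next in width were nearer to an O-GlcNAc peak. The 118 bp peak at 20074359 to 20074476 was 9751 bp away, and the 113 bp peak at 21775926 to 21776038 was 345 bp away.

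OGA peaks on the X were mostly distant from O-GlcNAc peaks. The median distance to the nearest O-GlcNAc peak was 43453 bp (quartiles 6360 and 146062 bp), against 11227 bp on the autosomal arms. On the X, 80 OGA peaks (34.6%) were more than 100 kb away, against 8.69% on the autosomal arms, and 19 of those 80 lay in the first Mb. Within 10 kb the X had 72 OGA peaks (31.2%), against 47.8% on the autosomal arms. Within 1 kb the shares were closer, at 13.0% and 14.9%. In the distal cluster, 36 of the 53 OGA peaks had an O-GlcNAc peak within 10 kb. A lower density of O-GlcNAc peaks lengthens these distances by itself, and its part was not tested.

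Seen from the O-GlcNAc peaks, the X stood closer to the other arms. The median distance to the nearest OGA peak was 6014 bp on the X (quartiles 918 and 26970 bp) and 4040 bp on the autosomal arms. On the X, 38 of 141 (27.0%) had an OGA peak within 1 kb, against 26.1% on the autosomal arms, and 88 (62.4%) within 10 kb, against 67.6%. More than 100 kb away were 14 (9.93%) on the X, against 2.23%. These distances depend on the narrowest OGA peaks. With those under 10 bp left out, an alternative chosen after seeing the data, the medians were 22453 bp on the X and 7574 bp on the autosomal arms.

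**Figure D3:**
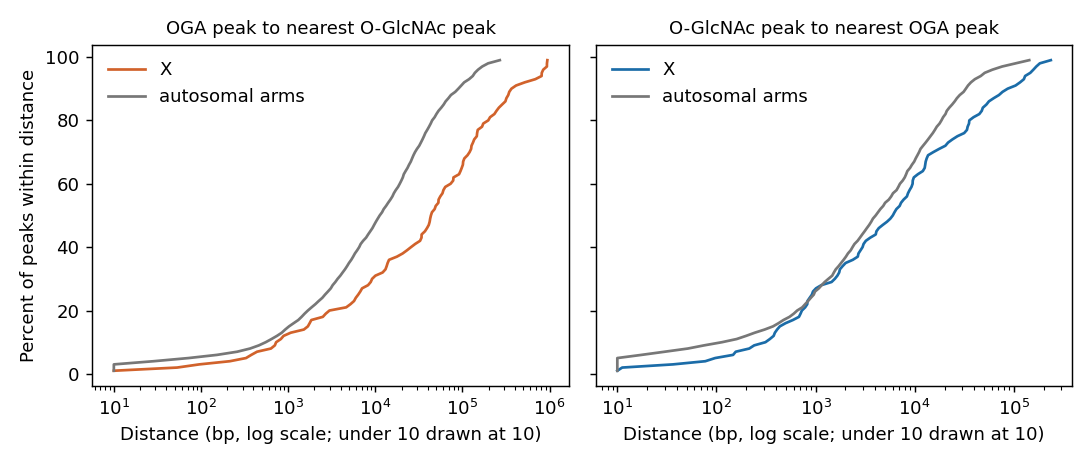
Cumulative share of peaks by distance to the nearest peak of the other kind (log axis, bp), on the X and on the autosomal arms. The OGA curve of the X lies to the right of the autosomal one, with medians of 43453 and 11227 bp, while the O-GlcNAc curves lie closer together, at 6014 and 4040 bp.

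On the X, 3 pairs of peaks overlapped by at least 1 bp, so 2.13% of the O-GlcNAc and 1.30% of the OGA peaks of the X did, against 4.34% and 2.65% on the autosomal arms. The 132 bp O-GlcNAc peak at 4000057 to 4000188 held a 1 bp OGA peak at 4000129. The 90 bp peak at 3669980 to 3670069 held an 8 bp OGA peak at 3670016 to 3670023. The 347 bp peak at 11696937 to 11697283, in the chain of 9, held a 66 bp OGA peak at 11697129 to 11697194.

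At the end of feeding, O-GlcNAc signal at the X peaks was close to that elsewhere. Signal here is the authors' value for a peak divided by the peak's width, per base. In WT at 0 h the median was 34.2 on the X, with peaks from 20.6 to 57.5, and 32.7 on the autosomal arms. In OGA-null at 0 h it was 22.9 on the X, from 19.7 to 34.2, and 22.7 on the autosomal arms. On the log2 scale the X exceeded the other arms by 0.06 in WT and by 0.01 in OGA-null. In WT the difference was 0.007 within peaks of up to 50 bp and 0.06 within wider peaks. In OGA-null it was -0.01 within peaks of up to 50 bp and within wider peaks. WT was higher than OGA-null at 0 h in 140 of the 141 X peaks. Over all 1883 peaks, OGA-null was the higher at 0 h in 3. The sources do not give the scaling of the columns, so a level difference between columns may include their scaling.

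Among the X peaks, signal per base rose with width. In WT at 0 h the median was 31.4 for 20 bp peaks, 32.5 for those of 21 to 50 bp, 35.7 for 51 to 100 bp and 37.4 for wider ones. The Spearman rho between width and signal per base was 0.573 in WT and 0.567 in OGA-null over 141 peaks, and 0.487 and 0.475 on the autosomal arms. The peaks share libraries and columns, so these are descriptions. Signal of the same peak in the 2 genotypes at 0 h had a rho of 0.597.

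The signal at X peaks was lost over the chase in both genotypes, and later in OGA-null. In WT, the median share of a peak's 0 h signal that was left was 46.1%, 32.3%, 15.3%, 11.7%, 6.95%, 2.71% and 0.417% at the 7 times from 4 to 36 h, in order. In OGA-null it was 98.2%, 77.4%, 63.0%, 48.9%, 29.9%, 11.6% and 6.34% at the same times. At 16 h the middle 50% of X peaks held 9.40% to 15.2% of their signal in WT and 41.7% to 56.7% in OGA-null, so those ranges did not overlap. In WT at 36 h, 3 X peaks were at 0.

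In OGA-null, 64 of the 141 X peaks (45.4%) had more signal at 4 h than at 0 h, against 43.8% of all 1883 peaks. At 8 h 2 X peaks did, against 1.12% of all peaks.

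The median log2 share left on the X fell by 0.214 ± 0.00871 (SE) per hour in WT. In OGA-null it fell by 0.122 ± 0.0134 per hour over the whole chase, but not evenly: it stayed near its start at 4 h and passed 50% between 12 and 16 h, so no half-life is given from this line. Over the 8 times the Pearson r with time was -0.995 in WT and -0.966 in OGA-null, each with a two-sided exact permutation p of 2.48e-05, the smallest that 8 times allow. Spearman's rho was -1 in both, with an exact permutation p of 4.96e-05. Without the earliest and latest times r was -0.987 in WT and -0.947 in OGA-null, each with an exact permutation p of 0.00278. Feeding ended at 0 h, so a decline over the chase follows from the design, and these p values add little to it. On the autosomal arms the median log2 share left fell by 0.206 ± 0.00990 per hour in WT and by 0.119 ± 0.0130 in OGA-null. There 97.8% was left at 4 h and 50.8% at 16 h in OGA-null.

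**Figure D4:**
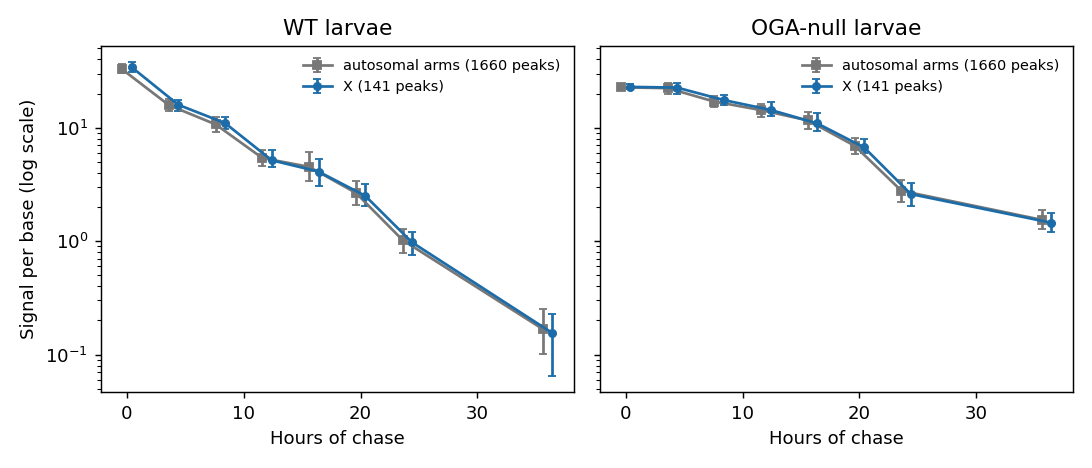
Median signal per base (log axis) at each chase time (h) for the 141 X peaks and the 1660 autosomal peaks in WT and OGA-null, with the quartiles over peaks as bars, which are not replicate errors. The X medians fell from 34.2 at 0 h to 4.11 at 16 h in WT and from 22.9 to 10.9 in OGA-null, and the autosomal medians lie close to them at each time.

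By the medians, the X peaks lost a slightly larger share of their 0 h signal than autosomal peaks in WT, and in OGA-null from 16 h on. In OGA-null at 4 to 12 h they kept slightly more. The median log2 share left on the X minus that on the autosomal arms in WT was between -0.10 and -0.01 at 4 to 12 h, then -0.23, -0.21, -0.18 and -0.24 at the last 4 times. At 16 h in WT the X median of 11.7% compared with 13.3% to 14.3% on the 4 autosomal arms. In OGA-null the difference stayed smaller, at 0.01, 0.04, 0.01, -0.05, -0.03, -0.08 and -0.10, and the X had 48.9% at 16 h against 50.1% to 51.2% on the autosomal arms. The difference fell by 0.00717 ± 0.00177 per hour in WT, with an r of -0.856 and an exact permutation p of 0.00588, or 0.0378 after Benjamini-Hochberg adjustment over the 10 relations of 5 arms and 2 genotypes. In OGA-null it fell by 0.00348 ± 0.000876 per hour, with an r of -0.851 and an exact permutation p of 0.00756, adjusted 0.0378. No other arm passed after adjustment in either genotype. The 0 h point of each difference is 0 by definition, because every share is relative to the peak's own 0 h signal. Without 0 h, the adjusted exact permutation p was 0.0799 in WT and in OGA-null. The WT shares also divide by a 0 h signal that was 0.06 log2 units higher on the X. Undivided, the WT medians per base were 4.11 on the X and 4.52 on the autosomal arms at 16 h. At 36 h they were 0.155 and 0.167.

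These small trends were lost under several alternatives. Spearman's rho was -0.881 in WT, with an exact permutation p of 0.00724 and 0.0724 after adjustment, and -0.762 in OGA-null, with 0.0368 and 0.0919. Without the earliest and latest times, 6 times remained, and r was -0.805 in WT, with an exact permutation p of 0.0722, and -0.829 in OGA-null, with 0.0528. With each time left out in turn, the adjusted exact permutation p stayed under 0.05 for 2 of 8 left-out times in WT (8 and 16 h) and for 1 of 8 in OGA-null (8 h), and the slopes kept their direction. In WT at peaks of up to 50 bp the slope was 0.00205 per hour, the opposite direction, with an adjusted exact permutation p of 0.671, and at wider peaks it was -0.00997, with 0.00926.

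**Figure D5:**
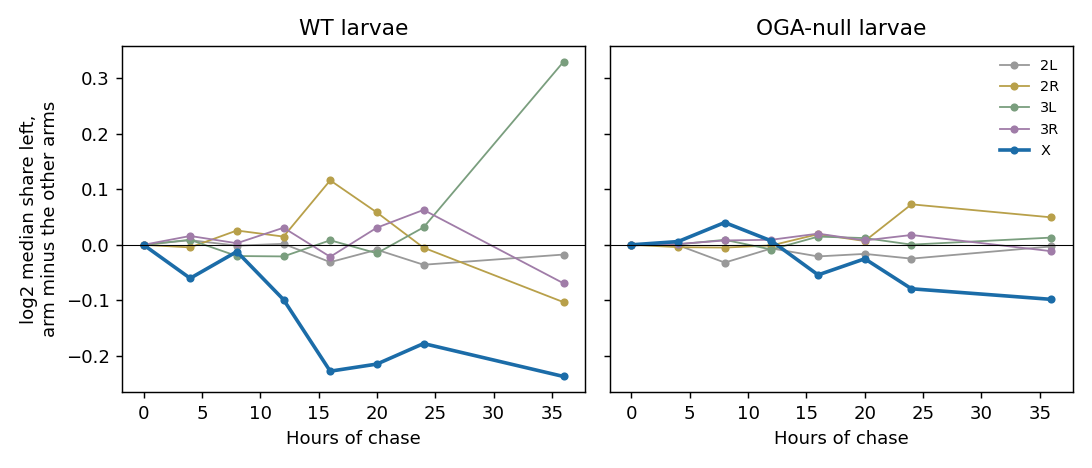
Median log2 share left of each arm minus that of the other large arms, by chase time (h), in WT and OGA-null. The X is the lowest line in WT at 16 h, at -0.23, and its OGA-null values stay between -0.10 and 0.04.

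OGA-null exceeded WT at nearly every X peak once the chase had begun. The median ratio of OGA-null to WT signal on the X was 0.675 at 0 h, and 1.41, 1.59, 2.76, 2.76, 2.86, 2.77 and 11.4 at the 7 later times, in order. OGA-null was higher at 138 of 141 X peaks at 4 h and at 141 from 8 h to 16 h. It was higher at 140 at 20 h, at 139 at 24 h and at 141 at 36 h. The same held for the whole series. Of all 1883 peaks, OGA-null was higher at 1861 at 4 h, 1871 at 8 h and 1883 at 12 and 16 h. The counts were 1880 at 20 h, 1871 at 24 h and 1883 at 36 h. At least 2-fold more was found at 2 X peaks at 4 h, against 1.38% of all peaks, at 13 (9.22%) at 8 h, against 11.8% of all peaks, and at 133 (94.3%) at 12 h, against 90.1% of all peaks. It was found at 127 (90.1%) at 16 h, against 80.1% of all peaks, at 115 (81.6%) at 20 h, against 80.5%, and at 106 (75.2%) at 24 h, against 80.7%. At 36 h it was found at all 141, against 99.2% of all peaks, where the median WT signal per base was 0.155. The log2 ratio on the X rose by 0.0944 ± 0.0134 per hour, with an r of 0.944 and an exact permutation p of 0.000174, and a rho of 0.976 with an exact permutation p of 0.000397. Without the earliest and latest times the r was 0.850, with an exact permutation p of 0.0194. The rise was not even, since the median ratio stayed between 2.76 and 2.86 from 12 to 24 h. Without 36 h the slope was 0.0798 per hour. The rise on the autosomal arms was 0.0875 ± 0.0121 per hour.

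The X exceeded the other arms in this ratio at the later times, by 0.07, 0.13 and 0.15 on the log2 scale at 12, 16 and 20 h and by 0.27 at 36 h, but not at 24 h, where the difference was under 0.01. The slope was 0.00693 ± 0.00213 per hour, with an r of 0.799 and an exact permutation p of 0.0162, adjusted 0.0484 over 5 arms. Its rho was 0.619, with an exact permutation p of 0.115, and without the earliest and latest times the r was 0.335, with an exact permutation p of 0.475. Without 36 h alone the slope was 0.00441, with an exact permutation p of 0.204, and without 0 h alone it was 0.00678. After adjustment the relation passed without 24 h but not with any other time left out. It also ran the other way at peaks of up to 50 bp, with a slope of -0.00491. On 3L the ratio changed against the other arms by -0.00751 per hour, also with an adjusted exact permutation p of 0.0484.

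Among single X peaks, the highest WT signal per base at 0 h was at 1965895 to 1966185, a 291 bp peak in the chain of 10. Its signal in WT over the 8 times, in order, was 57.5, 25.8, 18.8, 8.62, 5.72, 3.92, 1.02 and 0.221. In OGA-null it was 34.2, 35.3, 30.8, 26.6, 16.7, 12.9, 4.39 and 2.44 at those times. The OGA-null values were below WT at 0 h and above it at every later time. The widest peak, at 19047364 to 19047841, had 47.9 in WT and 28.7 in OGA-null at 0 h, and 4.62 and 13.8 at 16 h. The lowest WT signal at 0 h was 20.6, at 21271153 to 21271172, a peak with 3.17% left at 16 h and the one X peak in which OGA-null was not below WT at 0 h, with a ratio of 1.01.

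Of the 3 peaks that overlapped an OGA peak, 1 had a higher WT signal at 12 and 16 h than the others. At 4000057 to 4000188 the WT signal at 0, 12, 16 and 36 h was 40.6, 7.06, 8.06 and 0.141, and 19.9% was left at 16 h, the second-largest WT share among X peaks of at least 50 bp. At 3669980 to 3670069 it was 36.7, 4.42, 3.30 and 0.0849 at those times. At 11696937 to 11697283 it was 36.5, 4.61, 4.12 and 0.0389. In OGA-null the 3 peaks had 14.0, 13.6 and 12.1 at 16 h.

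The outermost O-GlcNAc peaks were both narrow. The most distal, 29 bp at 945566 to 945594, fell in WT from 33.2 at 0 h to 5.10 at 16 h and 0.171 at 36 h, and in OGA-null from 25.0 to 10.7 and 1.59. The most proximal, 20 bp at 21776384 to 21776403, fell in WT from 40.0 to 10.0 and 0.371, and in OGA-null from 24.6 to 20.3 and 2.73. It lay 312 bp from an OGA peak and kept 25.1% at 16 h in WT and 82.6% in OGA-null.

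Over all 141 X peaks the share left at 16 h ran from 3.17% to 34.9% in WT and from 25.5% to 89.0% in OGA-null. The 76 X peaks of at least 50 bp had narrower ranges. In WT at 16 h their share left ran from 5.46% at 12583511 to 12583635 and 5.61% at 8764193 to 8764288 up to 22.5% at 8468260 to 8468364. In OGA-null it ran from 33.0% at 14726639 to 14726691 up to 73.6% at 9394104 to 9394184. The peak at 9394104 also had one of the smallest OGA-null to WT ratios at 12 h among these peaks, 1.89, and the largest was 3.92, at 3642910 to 3643045. Over 141 peaks the shares left at 16 h in both genotypes had a rho of 0.415, and those at 8 h a rho of 0.033.

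Shares left in classes of X peaks are described here without a test. The 38 X peaks within 1 kb of an OGA peak had a median of 10.1% left at 16 h in WT. The other 103 had 12.6%. In OGA-null these were 47.2% and 49.4%. On the autosomal arms the 16 h medians were 12.8% near an OGA peak and 13.9% elsewhere in WT. They were 49.2% and 51.6% in OGA-null. For the X classes in WT, the medians were 32.1% and 32.6% at 8 h and 15.0% and 15.6% at 12 h. At 24 h the order was reversed, at 2.74% and 2.70%. The 6 large chains had medians of 9.33% to 12.6% in WT and 44.0% to 57.9% in OGA-null at 16 h. Median OGA-null to WT ratios at 12 h in the 6 chains ran from 2.29, at 18530537 to 18548651, to 3.16, at 2022004 to 2048795. The 61 peaks of the distal cluster had a median of 0.552% left at 36 h in WT, against 0.339% for the other X peaks. The cluster was also higher at 12, 20 and 24 h, but lower at 4, 8 and 16 h, with 10.9% against 11.7% at 16 h. Its peaks were narrower, with a median width of 40 against 67 bp. The width classes of the X peaks were 20, 21 to 50, 51 to 100 and over 100 bp. In that order, the WT share left at 36 h was 0.692%, 0.538%, 0.237% and 0.347%. In OGA-null at 12 h it was 62.8%, 58.1%, 62.1% and 70.9%. Neither ran steadily with width. In OGA-null at 4 h the share left did rise over these classes, at 91.4%, 94.1%, 100% and 103%. It also rose at 8, 20 and 36 h, but not at every step at 16 and 24 h. The Spearman rho between width and share left in OGA-null was 0.279, 0.288, 0.240 and 0.338 at 4, 8, 16 and 24 h. On the autosomal arms it was 0.205, 0.222, 0.214 and 0.192. In WT on the X it was 0.034, 0.0002, 0.080 and 0.011. Nearby peaks were somewhat closer in level at 0 h in WT. The median log2 difference was 0.128 for 34 neighbouring pairs within 1 kb and 0.216 for 68 pairs more than 10 kb apart. The Pearson r was 0.306 and 0.096. On the autosomal arms the median differences were 0.156 and 0.195. Of the 34 X pairs, 18 were up to 100 bp apart and can share DNA fragments.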

How the data were processed

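O-GlcNAc-seq signal and OGA ChIP-seq peaks of whole Drosophila larvae were used as deposited. Per the file headers, the authors' O-GlcNAc table gives each peak's position and 1 signal value for each of 16 genotype and chase-time columns. Each column combines 2 replicates. The OGA list gives positions alone. Version 2.17.0 of bedtools, SAMtools, and the genome builds sacCer3 and dm3 appear in the submitters' processing notes with no role stated. Aligner, peak caller and column scaling were not given in the sources used here. Depth per sample is unknown. Positions are 1-based on dm3. Gene names and sequences were not used here.

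Signal was divided by peak width, or by the same peak's 0 h value with no pseudocount, and medians over peaks were taken per arm. A line was fitted to the log2 medians over 8 times, with two-sided exact permutation tests over the pairings and Benjamini-Hochberg adjustment over 10 relations for the shares and 5 for the ratios. Density intervals are exact Poisson at 95%. The calculations were checked on simulated data. Python 3.11.15, numpy 2.4.6, pandas 2.3.3, scipy 1.17.1 and matplotlib 3.10.9 were used.

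The peaks named are the extremes on the X in 0 h signal and width, those in 12 h ratio and 16 h share among peaks of at least 50 bp, the overlapping, first and last peaks, and the largest chains and gaps. Of the 31 O-GlcNAc and 10 OGA peaks this rule gave, those that show the range are printed. The members and lists were chosen with earlier results of these data known. Alternatives for times, low signal, peak width, merging and distance limits were tried.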

Additional observations from a re-analysis of the deposited data

Results flagged for a closer look

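The OGA-null to WT ratio over the chase changed differently on the X than on the autosomal arms, by 0.00693 ± 0.00213 (SE) log2 units per hour, with an exact permutation p of 0.0162 over 8 times and 0.0484 after adjustment over 5 arms. The X median log2 ratio was -0.57 at 0 h and 3.51 at 36 h, and that of the autosomal arms was -0.53 and 3.24. It drew attention because the same contrast of genotypes differed between groups of peaks. Its direction turned at peaks of up to 50 bp. The Spearman rho was 0.619, with an exact permutation p of 0.115. Without 36 h the slope was 0.00441, with an exact permutation p of 0.204. At 24 h the X and the autosomal arms differed by under 0.01. On 3L the ratio changed in the other direction, also with an adjusted exact permutation p of 0.0484.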

How the results depend on the processing

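The declines on the X, which follow from the chase design, and the rise of the OGA-null to WT ratio on the X kept their direction and their call in all 15 alternatives each. The slopes of the X against the autosomal arms, in log2 units per hour, did not, and causes were not tested. With times left out in turn they ran from -0.00942 to -0.00658 in WT (adjusted exact permutation p 0.0337 to 0.104), from -0.00414 to -0.00311 in OGA-null (0.0486 to 0.121) and from 0.00441 to 0.00858 for the ratio (0.00198 to 0.516, passing without 24 h alone). No longer past the threshold were, from 0 to 24 h, -0.00942 in WT, -0.00351 in OGA-null and 0.00441 for the ratio, against 2R alone -0.00514 in WT and 0.00434 for the ratio, and -0.00467 in OGA-null at peaks of up to 50 bp. The ratio slope was 0.00488 at peaks with a WT 0 h signal of at least 1000, 0.00988 at peaks over 50 bp and 0.00581 with peaks closer than 500 bp merged, also not past it. At peaks of up to 50 bp the direction turned, to 0.00205 in WT and -0.00491 for the ratio. At 0 h the X minus the autosomal arms in OGA-null turned to -0.01 log2 units in both width classes, -0.0109 up to 50 bp and -0.0138 over 50 bp.

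Merging moved the density on the X to 5.23 O-GlcNAc and 9.21 OGA peaks per Mb, counting only 100 kb windows with a peak moved it to 14.5 and 23.8, and leaving out 1 to 3 Mb, chosen after seeing the data, to 4.04 and 8.98. OGA peaks of at least 10 bp, chosen in the same way, lay at 6.51 per Mb. In 100 kb windows the autosomal arms had 21.6 and 37.3 per Mb. After merging they had 14.8 and 25.3, so the ratios of the X to them were 0.353 and 0.364. With OGA peaks of at least 10 bp they had 18.4, a ratio of 0.354. Overlapping OGA peaks numbered 5 with O-GlcNAc peaks widened by 50 bp and 18 with 500 bp. On the X, O-GlcNAc peaks with a neighbour made up 59.6% within 5 kb, 80.9% within 20 kb and 58.8% after merging. OGA peaks made up 55.8%, 71.0% and 56.7%, or 53.5% at 10 bp or wider. On the autosomal arms these shares were 55.5%, 76.3% and 56.2% for O-GlcNAc. For OGA they were 59.9%, 81.8% and 62.8%, or 61.4% at 10 bp or wider. The distance from O-GlcNAc to OGA peaks was 22453 bp with OGA peaks of at least 10 bp.

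No paired analysis was possible because each column combines replicates 1 and 2, and leaving out each replicate was not run for the same reason. Depth is unknown, so what it limits was not measured. In WT at 36 h, 3 X peaks were at 0.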
